A study of Homo sapiens with 6 samples.

Results

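The 9 genes described here encode enzymes and factors that work at the DNA replication fork: the catalytic subunits of the polymerases alpha, epsilon and delta (Pola1, Pole and Pold1), the primase subunit Prim1, the sliding clamp Pcna, the flap endonuclease Fen1, DNA ligase 1 (Lig1), the single-strand binding subunit Rpa2 and the chromatin assembly subunit Chaf1a. They were chosen as 9 mouse Ensembl gene identifiers (IDs) of the 34866 in the deposited table, each matched by its number before the version suffix. All 9 were found, and 7 of them held enough counts to be tested. The symbols were given with the IDs, since the table carries none.

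The 6 libraries are RNA sequencing of MKN45, an established human gastric cancer line, negative for the mucin Muc6 per the design text. Of these samples, 3 were treated with adenovirus for a control short hairpin RNA (shRNA) and 3 with adenovirus for a Golph3 shRNA, so both groups carry a virus and a hairpin. Golph3 encodes a peripheral membrane protein of the Golgi, and the comparison asks how expression differs with its knockdown. The labels do not say how many hairpins were used, how long after infection RNA was taken, or whether the sample numbers 1 to 3 are separate cultures, so a p-value here measures the spread among these libraries only, and that spread may be technical. The libraries held between 4977645 and 7355140 estimated counts, with every Golph3 shRNA library below every control library. Counts were assigned to mouse gene IDs, on the mouse build mm10 per the submitters' processing notes, although the labels give human cells, and the table does not settle whether human reads were set against mouse models or the reads are from mouse cells. The level of a gene is therefore not read as its abundance, and no gene is compared in level with another. A fold change is likewise that of the counts listed under an ID. Whether those reads came from the gene of that symbol was not tested. The Golph3 knockdown itself and markers of the cell line were not analysed here, because the IDs carry no symbols.

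At a replication fork, polymerase alpha and primase lay down short primers of RNA and DNA. Polymerase epsilon then extends the leading strand, and polymerase delta, held on DNA by the clamp, extends the lagging strand. On the lagging strand Fen1 trims the flap at the end of each Okazaki fragment and Lig1 seals the remaining nick. Genes of this machinery are known as targets of the E2F transcription factors and are transcribed mostly towards the entry into S phase.

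Control regions are shown for POLA1 and PRIM1, whose products sit in one complex, and for FEN1 and LIG1, which act one after the other. They are the human genes with the members' symbols, taken from RefSeq on the build GRCh38.p14, whereas the counts and calls are by mouse ID. Of those mouse IDs, Pola1, Fen1 and Lig1 were called higher and Prim1 did not pass. Each region runs 5′ to 3′ along the gene and covers the 250 bases before the annotated start. Capitals mark the E2F core, searched on both strands first as TTCCCGC, then as TTCGCGC, after that as TTGCCGC and lastly as TTGGCGC. The POLA1 window is chrX:24693668-24693917 on the plus strand, PRIM1 is chr12:56752324-56752573 on the minus strand, FEN1 is chr11:61792661-61792910 on the plus strand and LIG1 is chr19:48170345-48170594 on the minus strand.
POLA1: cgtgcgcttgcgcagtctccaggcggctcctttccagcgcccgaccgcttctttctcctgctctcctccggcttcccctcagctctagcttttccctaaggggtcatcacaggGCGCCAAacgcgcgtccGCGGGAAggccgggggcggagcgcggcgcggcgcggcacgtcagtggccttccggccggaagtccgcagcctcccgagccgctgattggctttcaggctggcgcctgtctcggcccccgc
PRIM1: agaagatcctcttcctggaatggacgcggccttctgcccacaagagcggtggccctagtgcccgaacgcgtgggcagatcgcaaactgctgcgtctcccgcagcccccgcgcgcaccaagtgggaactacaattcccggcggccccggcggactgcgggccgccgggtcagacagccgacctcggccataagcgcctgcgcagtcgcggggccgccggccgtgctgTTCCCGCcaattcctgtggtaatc
FEN1: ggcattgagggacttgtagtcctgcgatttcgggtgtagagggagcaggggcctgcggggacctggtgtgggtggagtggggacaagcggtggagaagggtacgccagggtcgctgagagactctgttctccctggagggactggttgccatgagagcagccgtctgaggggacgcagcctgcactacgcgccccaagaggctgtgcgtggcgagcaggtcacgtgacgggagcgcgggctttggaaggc
LIG1: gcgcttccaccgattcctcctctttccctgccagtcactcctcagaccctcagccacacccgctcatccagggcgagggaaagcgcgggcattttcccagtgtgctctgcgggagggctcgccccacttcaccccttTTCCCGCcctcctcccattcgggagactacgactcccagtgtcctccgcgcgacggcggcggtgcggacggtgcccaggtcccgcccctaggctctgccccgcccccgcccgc

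Of the 9 symbols, 8 matched an entry, with 10 windows in all, and 6 of these 10 windows held at least 1 E2F core. Over the 35116 windows of the table, 10.9% did. POLA1, POLE and CHAF1A had 2 matches each, PRIM1, LIG1 and PCNA had 1, and FEN1 and POLD1 had 0. The CCAAT box, searched as CCAAT on both strands, was found in 6 of the 10 windows, where 32% of all windows held it. In POLE, CHAF1A and PRIM1 a match to it overlapped a match to the E2F core. These matches describe letters in a window and are not binding sites.

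Counts of 4 fork genes rose in the Golph3 shRNA libraries: Fen1 1.92-fold, Pola1 1.72-fold, Lig1 1.40-fold and Pold1 1.23-fold. Pole, Prim1 and Chaf1a did not pass the test, and Pcna and Rpa2 held too few counts to be tested. The call of Pold1 was lost in 8 of 14 alternatives, DESeq2 among them, which called 3 genes higher, whereas limma-voom called 4. None (0) of the 7 tested genes fell in edgeR, DESeq2 or limma-voom, and 0 had a lower count at an unadjusted p below 0.05 in edgeR. Calls are at a Benjamini-Hochberg adjusted p below 0.05 over the 11400 tested IDs in edgeR's quasi-likelihood test. By that rule 33.9% of all tested IDs were called, 16.1% as higher and 17.8% as lower. The 7 tested genes had a median log2 fold change of 0.30, against 0.0019 for all tested IDs. The genes were chosen with earlier results of these data known, so this median and the number of calls are a description with no test. In bulk RNA, a different share of cells that express a gene and a different amount of its RNA per cell cannot be told apart.

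**Figure D1:**
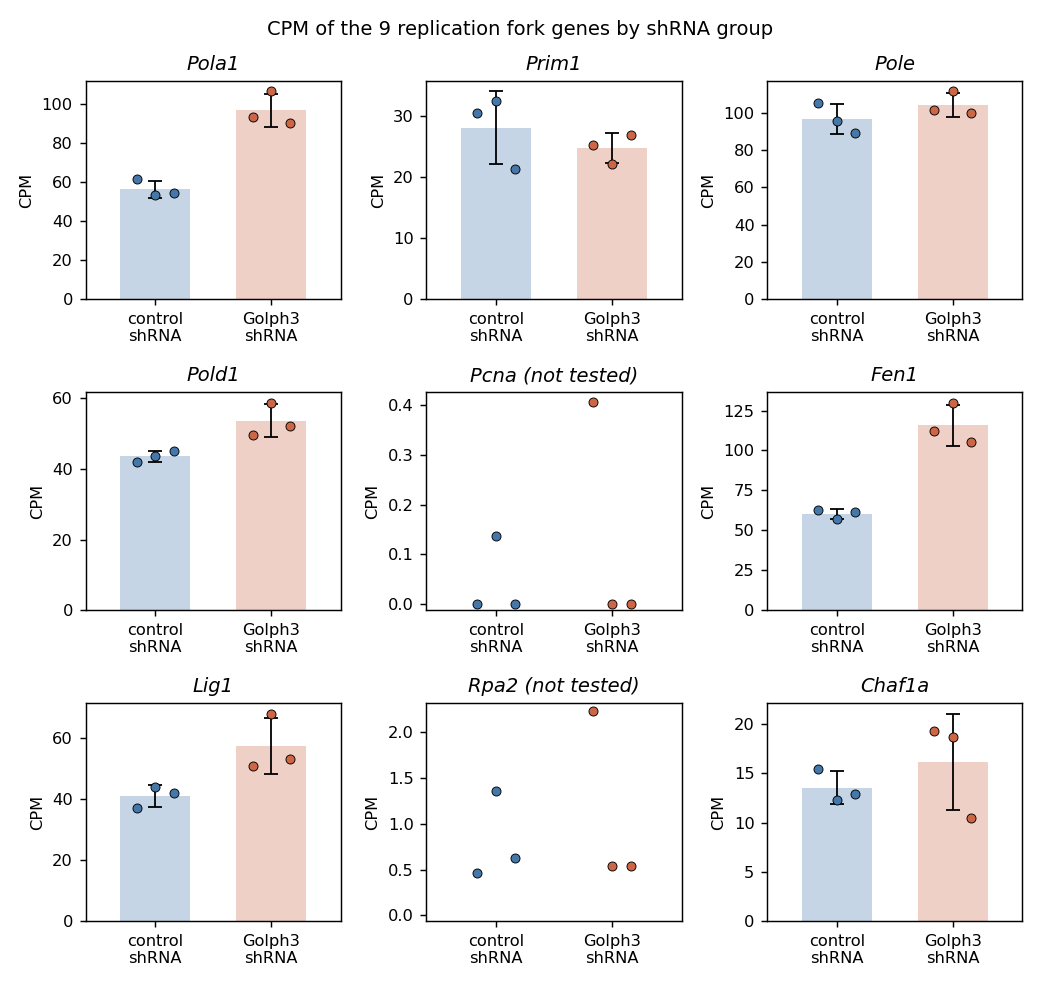
CPM (counts relative to a fixed library size, scaled by trimmed mean factors) of each gene on the vertical axis, by shRNA group. Points are the 3 libraries of a group from replicate 1 on the left to 3 on the right, bars the mean and whiskers the SD; for the 2 genes that were not tested only the points are drawn. Pola1, Pold1, Fen1 and Lig1 show no overlap between the groups, with Fen1 at 56.9 to 62.6 CPM in the controls and 105 to 130 CPM with Golph3 shRNA. Of all tested IDs, 46.3% showed no overlap in either direction and 22.1% were higher without overlap.

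The polymerase alpha and primase complex starts every new DNA strand. Pola1 (ENSMUSG00000006678.6), its catalytic polymerase subunit, had 395, 392 and 345 counts in control replicates 1, 2 and 3 and 461, 596 and 502 in the Golph3 shRNA replicates. In CPM these were 61.5, 53.5 and 54.4 in the controls and 93.5, 107 and 90.7 with Golph3 shRNA. The lowest Golph3 shRNA value was above the highest control value although those libraries were smaller. Pola1 rose from 56.4 ± 4.40 to 97.0 ± 8.55 CPM (SD, n = 3), which is 0.78 on the log2 scale with a standard error (SE) of 0.098 (edgeR adjusted p = 1.8e-05). Of all tested IDs, 5.61% had a higher log2 fold change.

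Prim1 (ENSMUSG00000025395.14) encodes the primase subunit that makes the RNA primer. Its control values were 30.5, 32.6 and 21.4 CPM, and its Golph3 shRNA values were 25.3, 22.2 and 26.9 CPM. All 3 Golph3 shRNA values lay inside the range of the controls, of which replicate 3 stood apart as the lowest. The log2 fold change was -0.19 (SE 0.16, edgeR adjusted p = 0.40), and its 95% interval ran from -0.53 to 0.16, or from 0.69 to 1.12 times the control level. Without control replicate 3 it was -0.35 (edgeR adjusted p = 0.098).

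Within a library, Pola1 counts were divided by Prim1 counts, a ratio that no scaling of libraries can change. The pair was chosen after the values were seen, so the ratio is a description with no test. It was 2.02, 1.64 and 2.54 in the controls and 3.69, 4.81 and 3.37 with Golph3 shRNA, with no overlap, and its geometric mean was 1.92 times as high. Pola1 counts against those of Pole gave a tighter picture, with 0.585, 0.558 and 0.612 in the controls and 0.920, 0.958 and 0.911 with Golph3 shRNA. That pair, too, was chosen after the values were seen.

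**Figure D2:**
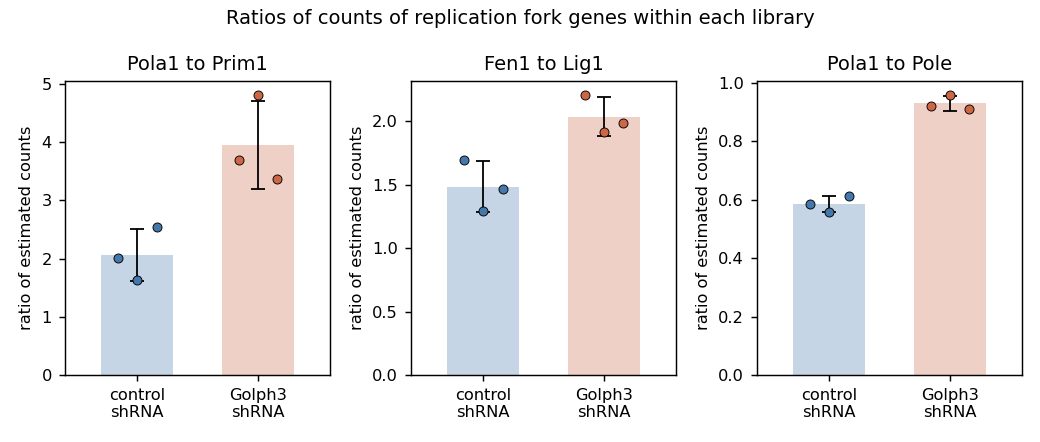
Ratio of the estimated counts of a pair of fork genes within each library, with points for the 3 libraries of a group, bars for the mean and whiskers for the SD. The groups do not overlap in any of the 3 ratios, but the pairs were chosen after the values were seen, so this is a description with no test. A ratio is compared between libraries only, because its level is not read as relative abundance.

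The polymerases that copy the bulk of the genome differed in their calls. Pole (ENSMUSG00000007080.14), the catalytic subunit of the leading strand polymerase epsilon, had 105, 95.7 and 88.9 CPM in the controls and 102, 111 and 99.6 CPM with Golph3 shRNA. The groups overlapped, and the log2 fold change of 0.11 (SE 0.089) did not pass (edgeR adjusted p = 0.36). Its 95% interval, from -0.078 to 0.30, reaches no further than a 1.23-fold rise, with 3615 counts over the 6 libraries behind it.

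Pold1 (ENSMUSG00000038644.14) is the catalytic subunit of the lagging strand polymerase delta. It had 41.9, 43.6 and 45.1 CPM in the controls and 49.7, 58.7 and 52.2 CPM with Golph3 shRNA, without overlap. Its log2 fold change was 0.30 (SE 0.10, 95% interval 0.078 to 0.52, edgeR adjusted p = 0.036). This call is close to the threshold and was lost in 8 of 14 alternatives, with DESeq2 (adjusted p = 0.058), without the filter on low counts (edgeR adjusted p = 0.072), with library totals alone (edgeR adjusted p = 0.051) and without any 1 of 5 libraries, the exception being Golph3 shRNA replicate 1. In these 5 fits the edgeR adjusted p was between 0.054 without Golph3 shRNA replicate 3 and 0.14 without Golph3 shRNA replicate 2, and without control replicates 1, 2 and 3 it was 0.10, 0.095 and 0.061. The difference between the fold changes of Pold1 and Pole was not tested.

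Okazaki fragment maturation was represented by a nuclease and a ligase, and both rose. Fen1 (ENSMUSG00000024742.15) had 402, 417 and 390 counts in the control replicates and 553, 726 and 582 in the Golph3 shRNA replicates. In CPM they came to 62.6, 56.9 and 61.5 against 112, 130 and 105, so that every Golph3 shRNA library was well above every control. It rose from 60.3 ± 3.03 to 116 ± 12.8 CPM (SD, n = 3), or 0.94 on the log2 scale (SE 0.096, edgeR adjusted p = 2.9e-06). Of all tested IDs, 3.49% had a higher log2 fold change.

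Lig1 (ENSMUSG00000056394.17) had 36.9, 44.0 and 41.9 CPM in the controls and 50.9, 67.9 and 53.1 CPM with Golph3 shRNA. The groups did not overlap, and Golph3 shRNA replicate 2 stood above the other two of its group, as it also did for Fen1, Pola1, Pold1 and Pole. Lig1 rose by 0.48 on the log2 scale (SE 0.12, edgeR adjusted p = 0.0062), and without that library by 0.34 (edgeR adjusted p = 0.042). The ratio of Fen1 to Lig1 counts, again chosen after the values were seen, was 1.70, 1.29 and 1.47 in the controls and 2.20, 1.92 and 1.98 with Golph3 shRNA.

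**Figure D3:**
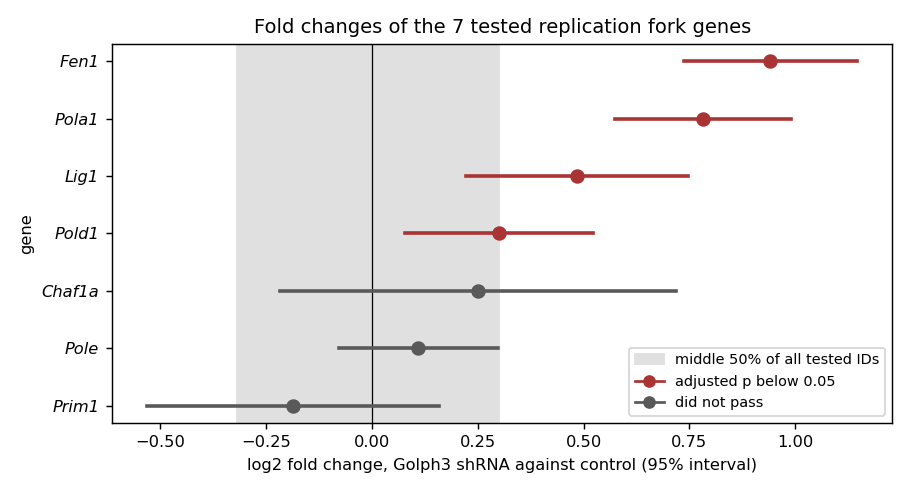
Log2 fold change of each tested gene, Golph3 shRNA against control, on the horizontal axis, with its 95% interval as a line. Red marks an adjusted p below 0.05 and the grey band the middle 50% of all tested IDs, from -0.32 to 0.30; Fen1 and Pola1 lie wholly to the right of the band.

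The clamp and the single-strand binding subunit were hardly counted. Pcna (ENSMUSG00000027342.14), the ring that tethers polymerases, Fen1 and Lig1 to DNA, was listed at 0 in 4 of the 6 libraries, at 1 in control replicate 2 and at 2 in Golph3 shRNA replicate 1. A count of 0 allows up to 3 counts, which is 0.41 to 0.61 CPM in these libraries, counting error only, and both groups were at or under that limit, so no fold is given. Rpa2 (ENSMUSG00000028884.14), part of the protein that coats unwound DNA, had 2.71, 9.93 and 4 estimated counts in the controls and 10.7, 3 and 2.84 with Golph3 shRNA. No group was higher in every library. Proliferating cells are known to need both genes, and their values here are not read as absence of the transcripts. Where reads of these genes were placed was not tested.

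Chaf1a (ENSMUSG00000002835.8) encodes the large subunit of chromatin assembly factor 1, which is brought to the fork by the clamp and loads histones on the new DNA. It had 15.4, 12.3 and 12.9 CPM in the controls and 19.3, 18.6 and 10.5 CPM with Golph3 shRNA. Replicates 1 and 2 of the Golph3 shRNA group were above all controls and replicate 3 was below all of them. The log2 fold change was 0.25 (SE 0.22, 95% interval -0.22 to 0.72) and did not pass (edgeR adjusted p = 0.41). Without Golph3 shRNA replicate 3 it was 0.48, which did not pass either (edgeR adjusted p = 0.080).

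The 4 genes that rose were also the 4 whose values did not overlap between the groups, all of them higher with Golph3 shRNA. Of all tested IDs, 46.3% had values without overlap, namely 22.1% that were higher and 24.2% that were lower. With a minimum of 1.5-fold, Fen1 and Pola1 stayed above it, where 6.57% of all tested IDs were called higher and at least 1.5-fold changed. Summed over the 9 genes, the libraries held 354, 340 and 327 CPM in the controls and 455, 516 and 439 CPM with Golph3 shRNA, a description in which genes with more counts weigh more.

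**Figure D4:**
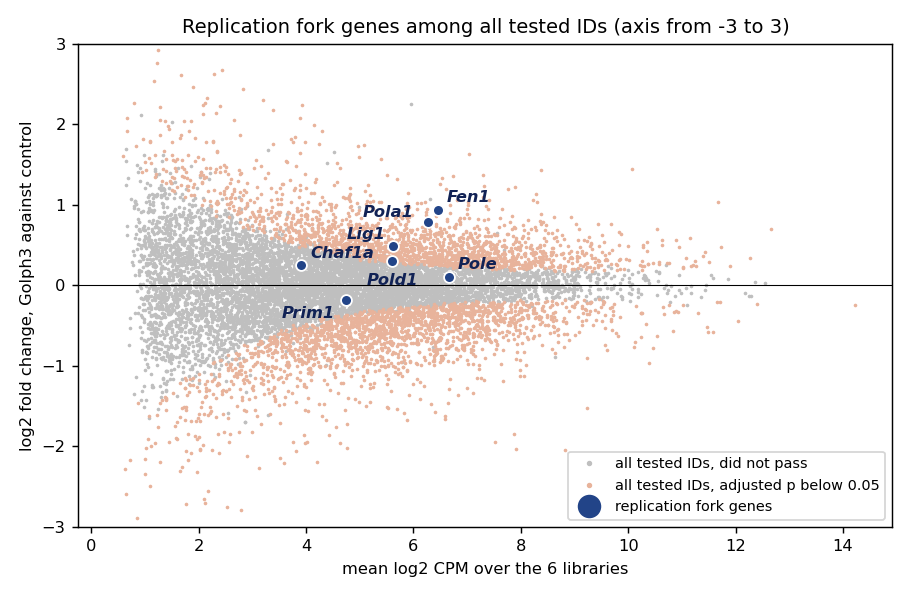
Each point is a tested ID, with its mean log2 CPM over the 6 libraries on the horizontal axis and its log2 fold change, Golph3 shRNA against control, on the vertical axis. The 7 tested fork genes are in blue, with Fen1 (0.94) highest, Pola1 (0.78) next and Prim1 (-0.19) the only one below 0; the vertical axis stops at -3 and 3, which leaves out 9 IDs.

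The genes also differed in whether their estimated counts were whole numbers. Pola1, Pold1, Fen1 and Lig1, the 4 that rose, and Pcna had whole numbers (within 1e-09) in all 6 libraries. Pole, Prim1 and Chaf1a had a fractional estimate in 2, 1 and 2 libraries, and Rpa2 in 4. Reads shared out over several gene models would leave such fractions, but no source used here states the method of estimation. Whether such fractions bear on the calls was not tested. Whole counts were common: when the fit was limited to IDs with whole counts in every library, 6263 were tested, against 11400 in the main fit. The same 4 genes were called higher, and they were the only 4 of the 9 tested in it. That fit therefore could not show how the other members behave. Of the 6263 IDs, 1245 were called higher and 1240 lower. The log2 fold change of Lig1 was 0.50.

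Other genes of S phase were read through the mouse marker pairs of the scran package, which carry mouse Ensembl IDs but no names. An ID was put in the list of a phase if the number of pairs in which it was the higher member exceeded the number in which it was the lower by at least 10, and by more than for any other phase. Lig1 and Chaf1a belonged to the S list with net numbers of 14 and 33, Prim1 and Pcna in the G1 list with 44 and 20, Fen1 in no list, and Pola1, Pole, Pold1 and Rpa2 were in no pair. Of the other 128 IDs in the S list, 109 were tested, of which 15 rose, 29 fell and 65 did not pass, with a median log2 fold change of -0.071. Of the other 203 IDs in the G1 list, 173 were tested, of which 32 rose, 45 fell and 96 did not pass, with a median of -0.022. The G2/M list held none of the 9 genes; of its 130 tested IDs, 19 rose, 49 fell and 62 did not pass, with a median of -0.27. In these 3 lists more IDs fell than rose, as among all tested IDs, of which 1840 (16.1%) rose and 2030 (17.8%) fell. The shares that rose and fell were 13.8% and 26.6% in the S list and 18.5% and 26% in the G1 list. In the G2/M list they were 14.6% and 37.7%. Only in the G1 list was the share that rose above that of all tested IDs. Of the fork genes in the S list, which these counts leave out, Lig1 rose and Chaf1a did not pass. Whether these pairs mark phases in these samples was not tested.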

How the data were processed

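The deposited file holds estimated counts by mouse Ensembl ID in the 6 libraries, not all whole. The build mm10 is per the submitters' processing notes; libraries were made with a stranded kit per the labels' protocols. No source used here names the aligner, quantifier, annotation release or filters. Counts were rounded, filtered with filterByExpr (11400 IDs kept) and tested with edgeR 4.0.16 in R 4.3.3, using TMM factors, group as the only term, a quasi-likelihood test and Benjamini-Hochberg adjusted p-values over all tested IDs. The SE is the log2 fold change over the square root of F, and 95% intervals use the moderated degrees of freedom. Alternatives were DESeq2 1.42.0, limma-voom (limma 3.58.1), other scalings and filters, the replicate block, each library left out and whole counts only. Lists came from scran 1.30.0. On simulated data with all 11400 IDs the fit recovered 47.8% of 67 changes of 1.5-fold, 67.2% of 67 of 2-fold and 97% of 66 of 4-fold. It made 11 false calls among 152. In the real data 3870 IDs were called, many more than were changed in the simulation. The simulated recovery is therefore not an estimate of the recovery in these data. The 9 genes were named by the rule that all of them are given; they and the lists were chosen with earlier results of these data known. No other gene is named, since the table pairs no IDs with symbols; planned lists of other fork genes and cell markers were therefore not run. Library totals averaged 6694187 ± 577514 estimated counts (SD, n = 3) for control shRNA and 5383568 ± 362788 for Golph3 shRNA.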

Additional observations from a re-analysis of the deposited data

How the results depend on the processing

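Fen1 and Pola1 kept their calls in 14 of 14 alternatives, with log2 fold changes from 0.85 to 1.00 and from 0.70 to 0.84, and Lig1 in 14 of 14, from 0.34 to 0.56. Pold1 lost its call in 8 of 14, as given beside it. Prim1, Pole and Chaf1a stayed below the threshold in 13 of 13, and no tested gene changed direction. With the replicate block 4 fork genes were higher and 0 lower, among 1842 higher and 2045 lower of all IDs. The numbers were not taken as pairs: like-numbered libraries deviated from their groups with correlations of only 0.032, 0.090 and 0.044, and of the 6 libraries only control 1 did not match its own number best (0.037 with Golph3 shRNA replicate 3). Leaving out 1 library gave 3 to 4 fork genes higher and 0 lower, among 1425 to 1665 higher and 1644 to 1929 lower of all IDs. A minimum of 1.5-fold left 2 fork genes, 749 higher and 1041 lower of all IDs, and 8 higher and 13 lower in the S list, by construction. With whole counts only, 1240 of all IDs and 17 of the S list were lower, out of fewer IDs tested (6263 and 69). Without the filter, edgeR gave Pcna a log2 fold change of 1.07 (SE 1.98, adjusted p = 0.75) and Rpa2 0.35 (SE 0.82, adjusted p = 0.80). With 3 and 34 counts in all, neither value is precise.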
